A study of Mus musculus with 2 samples.

Results

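The 9 genes described here encode transcription factors of the limb and digit mesenchyme: *Msx1*, *Msx2*, *Dlx5*, *Dlx6*, *Lmx1b*, *Prrx1*, *Prrx2*, *Twist1* and *Twist2*. They were chosen by symbol among the 33696 genes of the expression tables, and all 9 were present under 1 identifier each. The cells came from ICR mouse neonates in which the middle phalanx (P2) of hindlimb digits 2 and 4 had been amputated at postnatal day 3, with a bead soaked in FGF8 (500 ng/µl) or in 0.1% BSA as the control placed at the stump on postnatal day 7. After 24 h, at postnatal day 8, the tissue beyond the stump was collected without its epithelium and dissociated. The cells were sequenced by 10x Genomics 3′ single-cell RNA-seq, which counts molecules by unique molecular identifiers (UMIs). Each library pooled 20 digits of 5 mice of both sexes, no genetic modification was named for the mice, and a level is given as CPM, the UMIs of a gene per 1000000 UMIs of the cells named. All treated digits were pooled, and the paper considers it likely that some FGF8 digits were ones that do not regenerate.

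The groups had 1 library each, so no difference between FGF8 and BSA could be set against a spread between replicates and no test was made. The 95% intervals printed are exact and cover counting error only. The FGF8 library held 7249 barcodes, of which 6715 passed the cell filter, and the BSA library held 3703, of which 3252 passed, while 6 barcodes occurred in both libraries. Cells named fibroblast-like from their markers numbered 3314 with FGF8 and 1704 with BSA, at a median of 18633.5 and 20193 UMIs per cell. The libraries differed in more than the bead. Of the fibroblast-like cells whose sex could be called from X- and Y-linked transcripts, 24.3% were female with FGF8 and 80.1% with BSA, and UMIs of proliferation genes (*Mki67*, *Top2a*, *Birc5* or *Cenpf*) were found in 60.7% and 28.8% of fibroblast-like cells. Ratios within each sex and among cells without those UMIs are therefore given beside the main results. Treatment, library and sex make-up cannot be told apart otherwise. The litters of the pooled mice are not named, and the paper states that each litter was divided at random between FGF8 and BSA.

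As background, *Prrx1* and *Prrx2* are paired-type homeodomain factors that mark the early limb bud mesenchyme, and *Twist1* and *Twist2* are basic helix-loop-helix (bHLH) factors that keep mesenchymal cells from differentiating. *Msx1* and *Msx2* are homeodomain factors induced by bone morphogenetic proteins (BMPs), known for their part in regeneration of the digit tip, and the *Dlx5* and *Dlx6* pair acts in the limb ectoderm and in cartilage and bone formation. *Lmx1b* is the LIM homeodomain factor that gives the limb its dorsal identity. *Msx*, *Prrx* and *Twist* genes are commonly read as signs of a blastema, the mass of undifferentiated cells from which an amputated digit regrows.

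In the GENCODE annotation of GRCm39, the build of the count tables, *Msx1* lies on chromosome 5 (37977829 to 37981928, minus strand) and *Msx2* on chromosome 13 (53620914 to 53627110, minus strand), both with 2 exons. *Prrx1* is on chromosome 1 (163041844 to 163142033, minus strand) and *Prrx2* on chromosome 2 (30724984 to 30774419, plus strand), with 4 exons each. *Twist1* is on chromosome 12 (34007645 to 34009828, plus strand) and *Twist2* on chromosome 1 (91729176 to 91796542, plus strand), with 2 exons each. *Lmx1b*, with 8 exons, is on chromosome 2 (33450977 to 33531093, minus strand). *Dlx6* (6862989 to 6868568, plus strand) and *Dlx5* (6877804 to 6882092, minus strand) are neighbours on chromosome 6, 9235 bases apart and pointing towards each other. *Dlx6* lies inside the span of the antisense transcript *Dlx6os1*, which is transcribed from the other strand. Members of a pair are the closest relatives among these genes, and the pairs are the basis of the comparisons that follow.

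The upstream sequences of the *Prrx* and *Twist* pairs are shown because the results turn on how these 2 pairs differ between cell types. Each is the 250 bases before the RefSeq start of transcription (GRCm38.p6), read in the direction of the gene. Capitals mark TAATTA, a core that homeodomain proteins can bind, CANNTG, the E-box core of bHLH proteins, TATAAA, or CCAAT, searched on both strands. No matches overlapped in these 4 sequences. The *Prrx1* sequence is chr1:163313651-163313900 (minus strand), *Prrx2* is chr2:30845117-30845366 (plus strand), *Twist1* is chr12:33957421-33957670 (plus strand) and *Twist2* is chr1:91801211-91801460 (plus strand).
Prrx1: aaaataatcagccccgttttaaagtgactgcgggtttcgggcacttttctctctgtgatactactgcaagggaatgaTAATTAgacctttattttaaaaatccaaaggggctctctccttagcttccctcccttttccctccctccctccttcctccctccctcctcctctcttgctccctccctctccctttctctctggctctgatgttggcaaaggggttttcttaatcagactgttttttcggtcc
Prrx2: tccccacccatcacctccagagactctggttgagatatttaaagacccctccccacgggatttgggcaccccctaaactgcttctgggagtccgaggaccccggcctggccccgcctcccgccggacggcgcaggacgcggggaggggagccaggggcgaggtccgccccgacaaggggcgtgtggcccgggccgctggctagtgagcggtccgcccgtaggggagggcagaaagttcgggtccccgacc
Twist1: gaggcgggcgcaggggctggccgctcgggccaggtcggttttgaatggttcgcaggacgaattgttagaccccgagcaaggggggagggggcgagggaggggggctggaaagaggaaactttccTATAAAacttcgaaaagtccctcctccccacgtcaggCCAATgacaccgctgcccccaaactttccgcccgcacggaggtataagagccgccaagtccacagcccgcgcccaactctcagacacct
Twist2: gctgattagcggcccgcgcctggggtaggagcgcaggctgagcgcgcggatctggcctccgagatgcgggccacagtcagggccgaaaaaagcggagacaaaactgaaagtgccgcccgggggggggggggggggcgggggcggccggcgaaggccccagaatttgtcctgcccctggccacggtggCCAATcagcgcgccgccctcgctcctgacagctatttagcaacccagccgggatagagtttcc

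The paralogues differed in these letters. The *Prrx1* sequence held 1 TAATTA, at 173 bases before the start, and none of the other cores, while the *Prrx2* sequence held none of the 4 and was richer in G and C (70% against 47.6%). The *Twist1* sequence held TATAAA at 126 bases and CCAAT at 89 bases before the start, and the *Twist2* sequence only CCAAT, at 63 bases. Among 32851 RefSeq promoters of the same length, TAATTA was found in 4.84%, CANNTG in 66.2%, TATAAA in 12.4% and CCAAT in 33.8%. Of the other members with a sequence in the table, *Msx2* also held TAATTA, and *Msx1*, *Msx2* and *Lmx1b* each held 1 CANNTG. A match is no evidence of binding.

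Most of the factors were genes of the fibroblast-like cells. These cells were 49.4% of the kept cells with FGF8 and 52.4% with BSA, and they held 95.8% and 96.3% of all *Prrx2* UMIs, 94.9% and 96.6% of those of *Twist2*, 93.5% and 98.3% of those of *Lmx1b*, 91.4% and 89.8% of those of *Twist1* and 89.4% and 86.3% of those of *Prrx1*. The shares were lower for *Msx1* (79.5% and 75.4%) and *Dlx5* (73.7% and 62.6%), and *Dlx6*, with few UMIs, was at 91.8% and 80.8%. *Msx2* was the exception, with 21.3% and 25.9% of its UMIs in fibroblast-like cells. Most of its transcripts were counted in keratin-expressing and other cells.

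**Figure D1:**
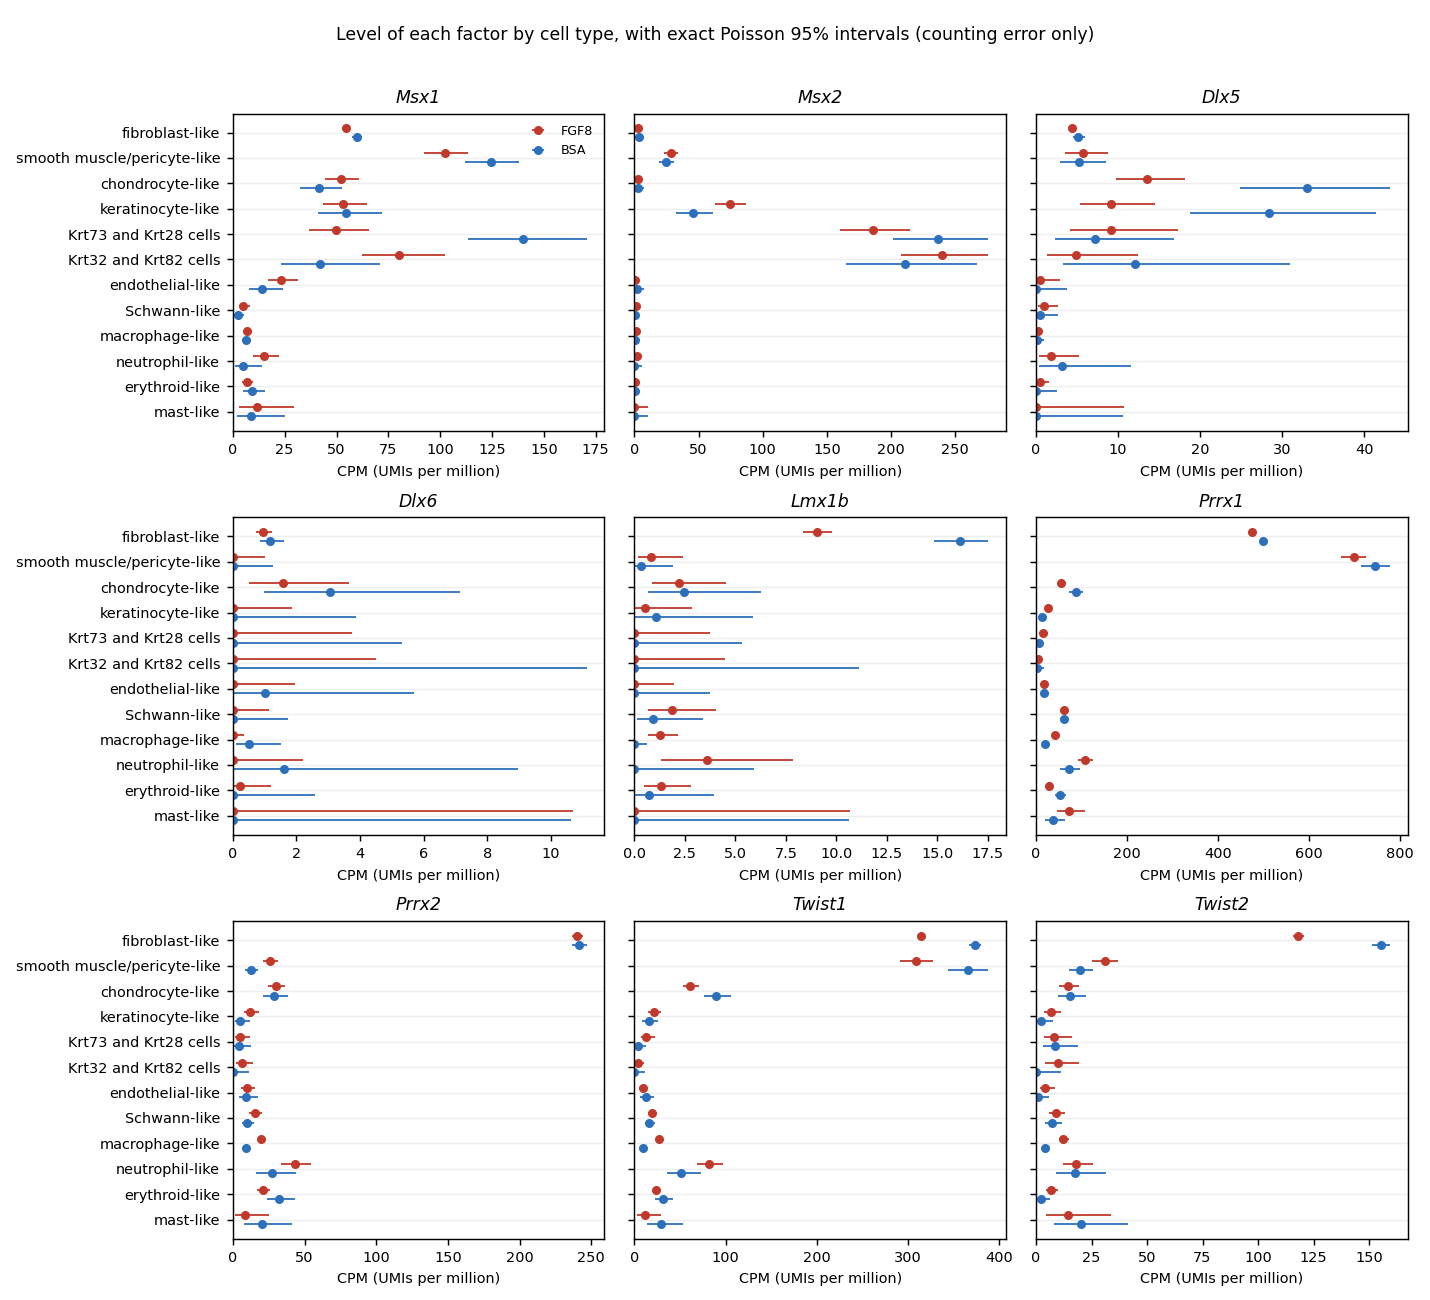
Level of each factor (CPM, linear axes from 0, a scale of its own for each gene) in 12 cell types, as points with exact Poisson 95% intervals, for FGF8 (red) and BSA (blue). *Prrx1* was highest in smooth muscle or pericyte-like cells (699 and 747 CPM), where *Prrx2* was at 25.7 and 12.4 CPM, and *Msx2* was highest in the keratin-expressing cells.

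Blood-derived cells, which should lack these factors, set the level that free RNA and mixed droplets can give. In macrophage-like cells *Prrx1* was at 42.8 CPM with FGF8 and 18.8 CPM with BSA, *Twist1* at 27.1 and 9.74, *Prrx2* at 19.9 and 9.40, and *Msx1* at 6.75 and 6.26. The highest of these blood-derived levels was in neutrophil-like cells, with *Prrx1* at 108 and 72.4 CPM. When each cell was thinned to 5000 UMIs to equalise depth, 85.0% and 86.3% of fibroblast-like cells held a *Prrx1* UMI, against 9.93% and 4.35% of macrophage-like cells. Without thinning the shares were 95.02% and 94.54% in fibroblast-like cells and 17.4% and 8.78% in macrophage-like cells, whose median depth was 9635 and 10311 UMIs. Levels whose interval was not above those of the blood-derived cells are not read as expression. By this measure *Prrx1* in Schwann-like (61.3 and 62.1 CPM) and endothelial-like cells (17.6 and 18.4 CPM) was not read as expression. For Schwann-like cells only the shallow neutrophil-like cells set this limit in both libraries. Their levels were above those of macrophage-like cells, and at 5000 UMIs 19.5% and 15.1% of them held a *Prrx1* UMI. Whether Schwann-like cells express *Prrx1* is thus not settled. A further 212 and 127 cells with fibroblast markers but a median of only 676.5 and 1184 UMIs were kept apart from the fibroblast-like cells, and held *Prrx1* at 251 and 232 CPM.

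*Prrx1* and *Twist1* were shared between fibroblast-like and smooth muscle or pericyte-like cells, the contractile cells around vessels (285 cells with FGF8 and 185 with BSA). *Prrx1* was at 475 CPM (interval 470 to 480) with FGF8 and 500 CPM (493 to 508) with BSA in fibroblast-like cells, and at 699 (672 to 726) and 747 (715 to 779) CPM in smooth muscle or pericyte-like cells. *Twist1* was at 314 and 373 CPM in fibroblast-like cells and at 308 and 365 CPM in smooth muscle or pericyte-like cells, and within each library the intervals of the cell types overlapped. Both genes were thus as high or higher in the vessel-associated cells.

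Their paralogues were not. *Prrx2* was at 240 and 242 CPM in fibroblast-like cells but at 25.7 (20.8 to 31.4) and 12.4 (8.72 to 17.2) CPM in smooth muscle or pericyte-like cells, no higher than in neutrophil-like cells (43.3 and 27.3 CPM). *Twist2* was at 118 and 155 CPM in fibroblast-like cells and at 30.9 (25.4 to 37.1) and 19.7 (14.9 to 25.5) CPM in smooth muscle or pericyte-like cells, beside 18.0 and 17.7 CPM in neutrophil-like cells. Macrophage-like cells were lower, at 12.3 (10.3 to 14.7) and 4.18 (2.68 to 6.21) CPM, with intervals below those of smooth muscle or pericyte-like cells. Whether smooth muscle or pericyte-like cells express *Twist2* at a low level is thus not settled. *Lmx1b* followed the second pattern, with 9.05 and 16.1 CPM in fibroblast-like cells and only 3 and 1 UMIs in all smooth muscle or pericyte-like cells. Between genes no levels were compared, since the reads come from the 3′ end and depend on the transcript.

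The same split was seen cell by cell. At 5000 UMIs per cell, 94.0% and 93.3% of smooth muscle or pericyte-like cells held a *Prrx1* UMI, and 6.80% and 6.10% a *Prrx2* UMI. The *Prrx2* share was close to that of erythroid-like cells, 4.38% and 8.70%. Both genes together were found in 6.40% (interval 3.70 to 10.2) of 250 cells with FGF8 and 5.49% (2.54 to 10.2) of 164 cells with BSA. In fibroblast-like cells both were found in 55.9% (54.1 to 57.8) of 2935 cells and 57.8% (55.3 to 60.4) of 1499 cells. The product of the separate shares was 55.2% and 57.4%, so that the paralogues co-occurred about as often as their separate shares give. For *Twist1* and *Twist2* the shares with both were 31.6% and 36.4% in fibroblast-like cells, beside products of 28.9% and 34.7%, and 6.40% and 6.10% in smooth muscle or pericyte-like cells. *Msx1* and *Msx2* were found together in 6.80% and 6.10% of smooth muscle or pericyte-like cells, beside products of 5.55% and 3.92%, and in 0.204% and 0.334% of fibroblast-like cells. *Dlx5* and *Dlx6* were found together in 3 fibroblast-like cells of each library, all in 1 subcluster, that led by *Prg4* and *Spp1*. There the shares with both were 0.251% and 0.813%, beside products of 0.0293% and 0.0808%. Without thinning, 32 and 23 cells of this subcluster held both, or 2.67% and 6.02%, beside products of 0.438% and 1.43%. The *Dlx5* and *Dlx6* shares with both were thus above the products in this subcluster, though from few cells. Co-detection depends on depth and is given as a description.

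**Figure D2:**
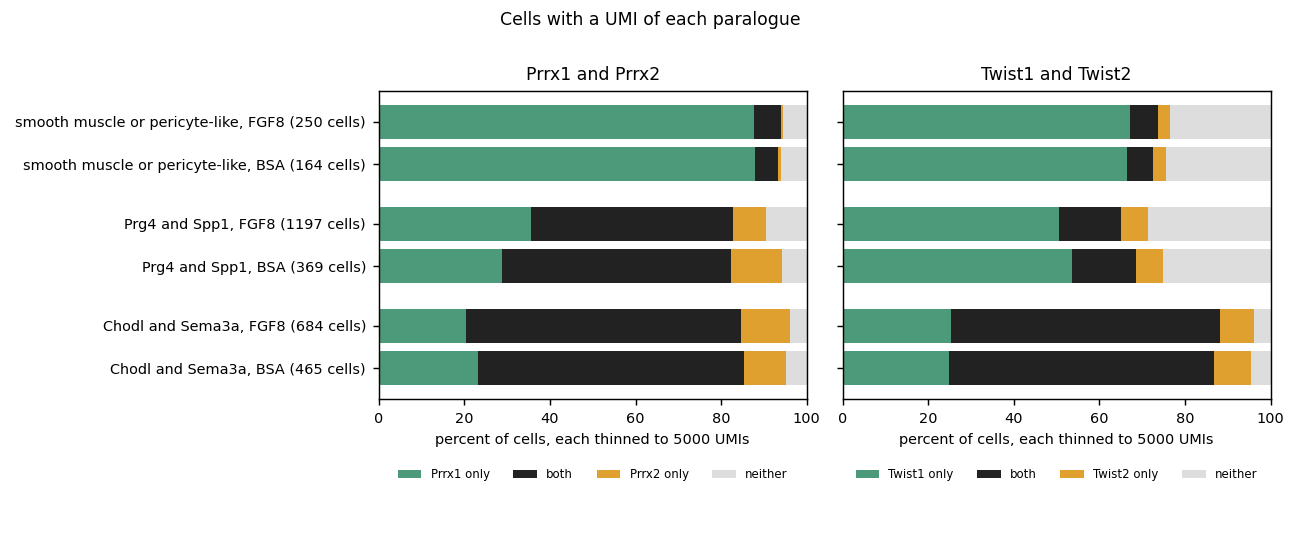
Percent of cells with a UMI of the first paralogue only, of both, of the second only or of neither, for *Prrx1* and *Prrx2* (left) and *Twist1* and *Twist2* (right), each cell thinned to 5000 UMIs; each bar is 1 cell group of 1 library. *Prrx1* without *Prrx2* filled 87.6% and 87.8% of smooth muscle or pericyte-like cells, against 20.5% and 23.2% in the *Chodl* and *Sema3a* subcluster.

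*Msx1* and *Msx2* were spread over more cell types. Among the types with at least 50 cells in each library, *Msx1* was highest in smooth muscle or pericyte-like cells, at 102 (92.3 to 113) CPM with FGF8 and 124 (112 to 138) with BSA, against 54.6 and 59.8 CPM in fibroblast-like cells. Chondrocyte-like cells were at 52.3 and 41.6 CPM and keratinocyte-like cells at 53.4 and 54.8 CPM. In both libraries the intervals of fibroblast-like and keratinocyte-like cells overlapped, and with FGF8 also those of fibroblast-like and chondrocyte-like cells.

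*Msx2* was highest in small groups of cells led by hair keratins. It was at 240 and 211 CPM in the *Krt32* and *Krt82* cells (33 and 21 cells), keratins of the hair cuticle, and at 186 and 237 CPM in the *Krt73* and *Krt28* cells (72 and 41 cells), keratins of the inner root sheath. Keratinocyte-like cells were at 74.2 and 45.3 CPM and smooth muscle or pericyte-like cells at 28.1 and 24.6 CPM. In fibroblast-like cells it was at 2.62 (2.25 to 3.03) and 3.57 (2.98 to 4.25) CPM. Both values lay below the upper bounds in neutrophil-like cells, 6.16 and 5.93 CPM, which were set by 4 and 0 UMIs at a low depth. The tissue was collected without its epithelium, so the keratinocyte-like cells are what was left of it.

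*Dlx5* was highest in chondrocyte-like cells, at 13.5 (9.75 to 18.1) CPM with FGF8 and 33.0 (24.8 to 43.1) CPM with BSA, from 43 and 54 UMIs. Keratinocyte-like cells followed at 9.15 and 28.4 CPM, with overlapping intervals in each library. Fibroblast-like cells were at 4.34 (3.86 to 4.85) and 5.17 (4.45 to 5.98) CPM, below the upper bounds in neutrophil-like cells (5.27 and 11.6 CPM, from 3 and 2 UMIs). *Dlx6* was sparse, with 67 and 42 UMIs in all fibroblast-like cells (0.959 and 1.18 CPM) and 5 in chondrocyte-like cells of each library. It was not found in keratinocyte-like cells, in which 3 counts would have given 1.52 CPM with FGF8 and 3.16 CPM with BSA. The same keratinocyte-like cells held *Dlx2* at 61.5 and 47.4 CPM and *Dlx3* at 57.9 and 30.5 CPM, other genes of the family known from the skin.

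Re-clustering of the fibroblast-like cells without the 9 factors among its genes gave 7 subclusters, named here by leading genes or, for 1, by its tenocyte markers. The *Prg4* and *Spp1* subcluster, led by a joint lubricant and a bone matrix protein, held 36.2% of the fibroblast-like cells with FGF8 (1199 cells) and 22.4% with BSA (382 cells). The *Chodl* and *Sema3a* subcluster held 21.1% and 28.0%. The *Lars2* and *Camk1d* subcluster had a median of 2556 and 2811.5 UMIs per cell, far below the others, and the *Tfap2c* and *Corin* subcluster held only 48 and 23 cells. The shares of the subclusters differ between the libraries, so a level over all fibroblast-like cells mixes levels within subclusters with their shares.

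**Figure D3:**
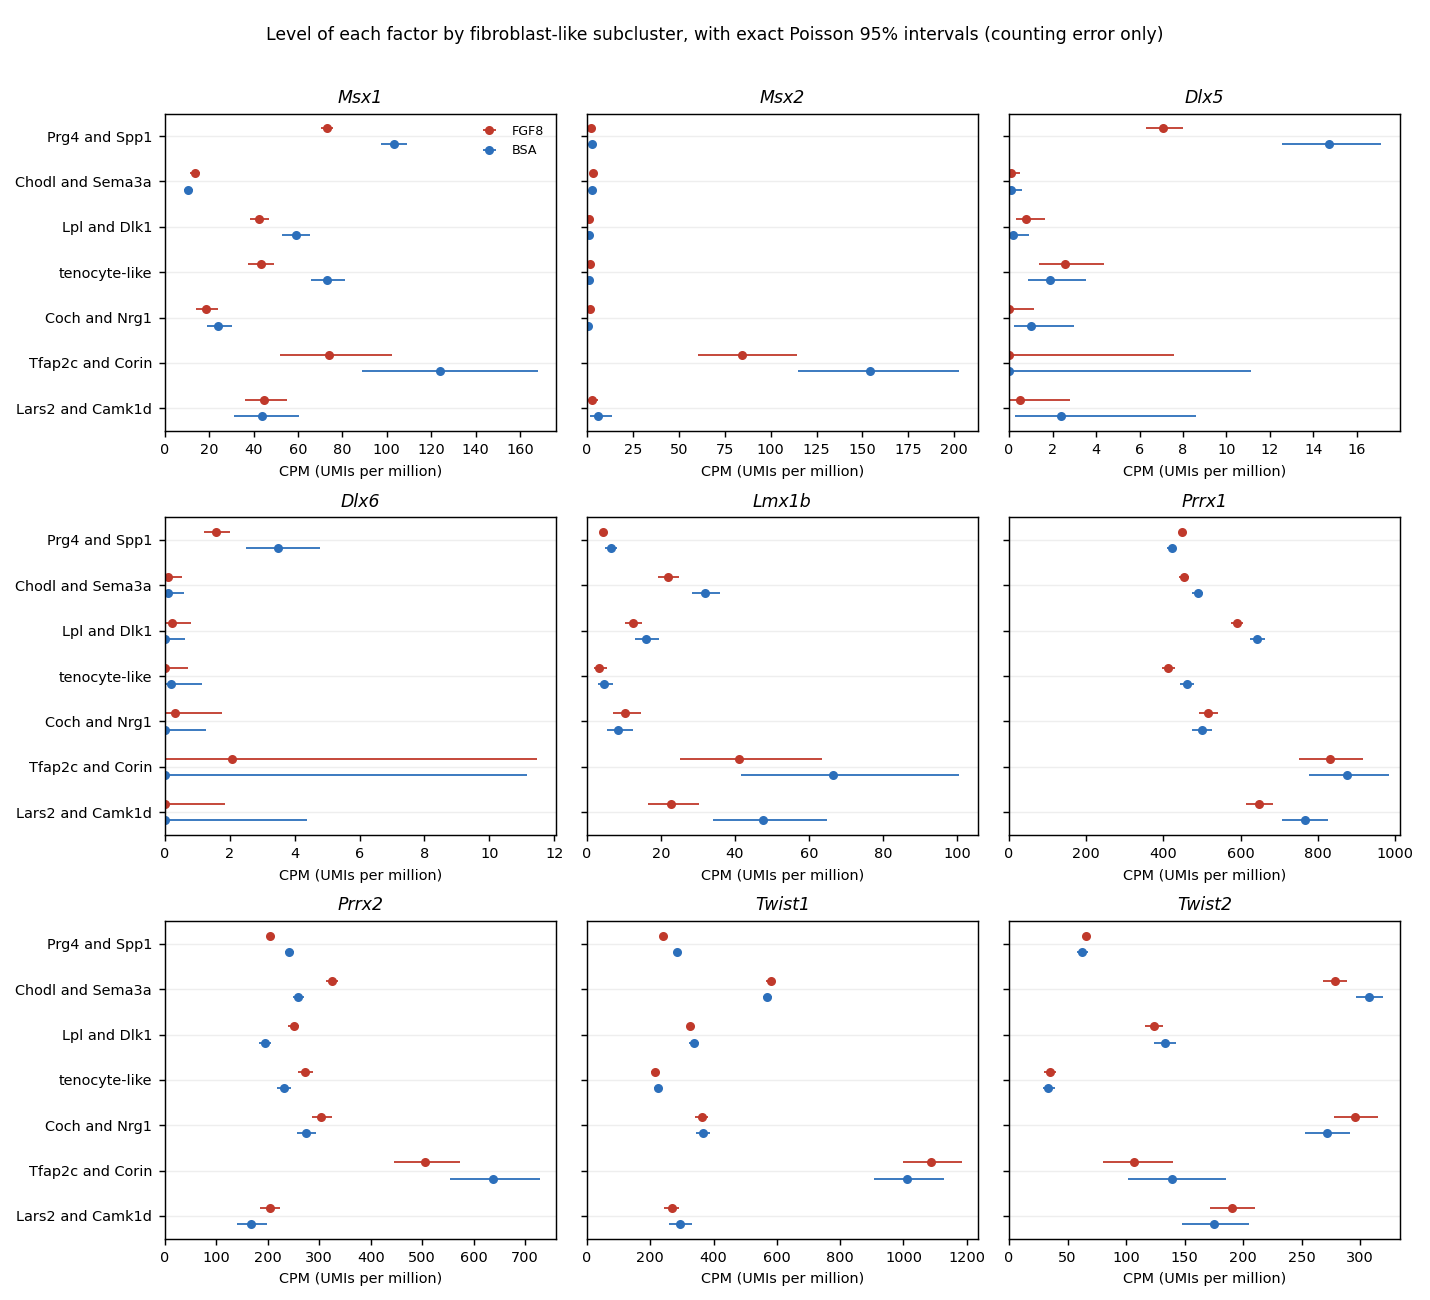
Level of each factor (CPM, linear axes from 0, a scale of its own for each gene) in the 7 fibroblast-like subclusters, as points with exact Poisson 95% intervals, for FGF8 (red) and BSA (blue). *Twist2* was at 279 and 308 CPM in the *Chodl* and *Sema3a* subcluster, and *Dlx5* at 7.10 and 14.7 CPM in the *Prg4* and *Spp1* subcluster.

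The factors divided the fibroblast-like cells differently. *Prrx1* was the most even, between 413 and 831 CPM with FGF8 and between 421 and 876 CPM with BSA over the 7 subclusters. *Prrx2* ranged from 204 to 506 CPM and from 168 to 637 CPM. In both genes the highest value was that of the small *Tfap2c* and *Corin* subcluster, which was also the highest for *Twist1* (1089 and 1012 CPM). The 331 and 170 fibroblast-like cells (10%) with the most *Prrx1* UMIs held 29.1% and 28.5% of its UMIs, against 64.5% and 68.6% for *Msx1*. This share is higher for any gene with fewer UMIs, so the genes are not ranked by it.

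*Twist1* and *Twist2* were high in the *Chodl* and *Sema3a* subcluster and low in the *Prg4* and *Spp1* and tenocyte-like subclusters. *Twist2* was at 279 and 308 CPM in the first of these, at 66.1 and 62.7 CPM in the second and at 34.8 and 33.7 CPM in the third. *Twist1* was at 581 and 570 CPM, 240 and 284 CPM, and 214 and 224 CPM. The *Coch* and *Nrg1* subcluster also held *Twist2* at 296 and 272 CPM. *Lmx1b* was highest in the small *Tfap2c* and *Corin* subcluster (41.2 and 66.5 CPM). It was at 21.9 and 32.0 CPM in the *Chodl* and *Sema3a* subcluster against 4.35 (3.72 to 5.05) and 6.39 (5.01 to 8.04) CPM in the *Prg4* and *Spp1* subcluster. The intervals of the latter pair were not clear of the upper bounds in neutrophil-like cells (7.85 and 5.93 CPM). Its levels lay above those measured in neutrophil-like, macrophage-like and erythroid-like cells.

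*Msx1*, *Dlx5* and *Dlx6* were higher in the *Prg4* and *Spp1* than in the *Chodl* and *Sema3a* subcluster. *Msx1* was at 73.0 (70.3 to 75.7) and 103 (97.4 to 109) CPM in the *Prg4* and *Spp1* subcluster and at 13.7 (11.5 to 16.0) and 10.6 (8.58 to 12.9) CPM in the *Chodl* and *Sema3a* subcluster. In the small *Tfap2c* and *Corin* subcluster it was at 74.1 (51.9 to 103) and 124 (88.9 to 168) CPM, overlapping the *Prg4* and *Spp1* values. *Dlx5* was nearly confined to the *Prg4* and *Spp1* subcluster, which held 92.7% and 91.3% of its fibroblast-like UMIs. For *Dlx6* this share was 92.5% and 95.2%. In the *Chodl* and *Sema3a* subcluster 1 UMI of each gene was found in each library. The antisense *Dlx6os1* was counted at 1.14 and 3.33 CPM in the *Prg4* and *Spp1* subcluster and not at all in the *Chodl* and *Sema3a* subcluster. *Runx2*, a regulator of bone formation, had a like order, at 157 and 189 CPM in the *Prg4* and *Spp1* subcluster and 30.3 and 17.3 CPM in the *Chodl* and *Sema3a* subcluster.

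Within the fibroblast-like cells *Msx2* had its highest level in the *Tfap2c* and *Corin* subcluster, at 84.4 (60.5 to 114) and 154 (115 to 203) CPM. Its 48 and 23 cells held 22.4% and 40.2% of the fibroblast-like *Msx2* UMIs, and the far larger *Prg4* and *Spp1* subcluster held 42.6% and 23.6%. In the *Prg4* and *Spp1* subcluster *Msx2* was at 1.97 and 2.63 CPM and in the *Chodl* and *Sema3a* subcluster at 3.25 and 2.91 CPM. These values overlap within each library.

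*Lmx1b* differed most between the libraries over all fibroblast-like cells. It was at 9.05 (8.35 to 9.78) CPM with FGF8 and 16.1 (14.8 to 17.5) CPM with BSA, 1.78-fold lower with FGF8 (log2 FGF8/BSA −0.84, interval −1.001 to −0.670). Of the 9 factors it alone was past 1.5-fold, in the direction in which 15.7% of the 20052 genes with at least 10 UMIs were past it. In the other direction 13.2% of genes and none of the factors were past 1.5-fold. A share of 1 in 9 is near this background, so by this count the factors as a group did not stand apart. All 9 log2 ratios were below 0, with a median of −0.25, while the median of all genes was −0.07, relative to which *Prrx2* lay above 0, and 56.1% of all genes were below 0.

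**Figure D4:**
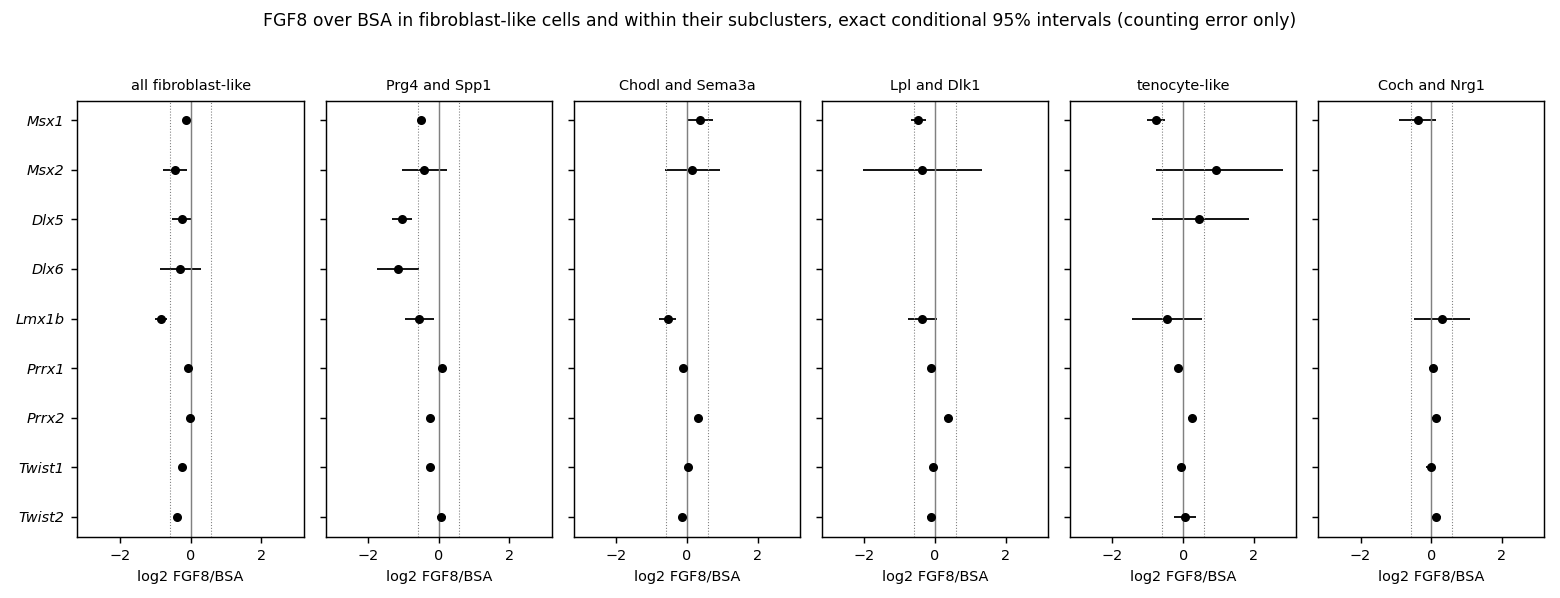
log2 ratio of FGF8 over BSA for each factor in all fibroblast-like cells and in 5 subclusters, as points with exact conditional 95% intervals; dotted lines mark 1.5-fold, and genes with fewer than 10 UMIs over both libraries or none in a library have no point. *Dlx5* was at −1.05 and *Dlx6* at −1.16 in the *Prg4* and *Spp1* subcluster, and *Prrx2* was above 0 in the other 4 subclusters plotted.

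Within subclusters the *Lmx1b* ratios varied. In the *Chodl* and *Sema3a* subcluster the log2 ratio was −0.55 (−0.80 to −0.30). In the *Prg4* and *Spp1* subcluster, where the levels were not clear of the upper bounds in neutrophil-like cells, it was −0.56 (−0.96 to −0.14). In the low-depth *Lars2* and *Camk1d* subcluster it was −1.07 (−1.72 to −0.42). The intervals in the *Lpl* and *Dlk1*, tenocyte-like, *Coch* and *Nrg1*, and *Tfap2c* and *Corin* subclusters held 0. With the subclusters weighted by their BSA shares in both libraries the log2 ratio over all fibroblast-like cells was −0.60. It was −0.75 among female-called cells, −0.86 among male-called cells, and −0.43 in cells without UMIs of the proliferation genes. Within subclusters the sexes were not alike. In the *Chodl* and *Sema3a* subcluster *Lmx1b* was at −0.59 (−1.11 to −0.10) among females and −0.26 (−0.69 to 0.20) among males, and in the *Prg4* and *Spp1* subcluster at −0.65 and 0.09. Female-called cells of the *Lpl* and *Dlk1* and tenocyte-like subclusters were at 0.36 and 0.54, with intervals that held 0.

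*Twist1* and *Twist2* were lower with FGF8 over all fibroblast-like cells, with log2 ratios of −0.25 (−0.28 to −0.22) and −0.39 (−0.44 to −0.34). Within subclusters the ratios were not all of this size. *Twist2* was at −0.14 (−0.22 to −0.07) in the *Chodl* and *Sema3a* subcluster and at 0.08 (−0.04 to 0.20) in the *Prg4* and *Spp1* subcluster. *Twist1* was at 0.03 (−0.03 to 0.08) in the former and at −0.24 (−0.30 to −0.18) in the latter, with −0.19 among its female-called and −0.52 (−0.63 to −0.41) among its male-called cells. With the subclusters at their BSA shares in both libraries the ratios over all fibroblast-like cells were −0.05 and −0.04, and in cells without UMIs of the proliferation genes −0.06 and −0.02. Among female-called cells *Twist1* was at −0.31 and *Twist2* at −0.30, and among male-called cells at −0.41 and −0.56.

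In the *Prg4* and *Spp1* subcluster *Dlx5* and *Dlx6* were the 2 factors past 1.5-fold. *Dlx5* was at 7.10 (6.29 to 7.98) CPM with FGF8 and 14.7 (12.6 to 17.1) CPM with BSA, a log2 ratio of −1.05 (−1.33 to −0.77). *Dlx6* was at 1.57 and 3.50 CPM, a log2 ratio of −1.16 (−1.76 to −0.55). In this subcluster 20.3% of the 17561 genes tested were past 1.5-fold lower with FGF8 and 11.4% higher, so 2 of 9 was again near the background. The *Dlx5* ratio was −1.05 among females and −0.83 among males, and that of *Dlx6* −0.98 and −1.37. In the subcluster as a whole UMIs of proliferation genes were found in 90.3% of cells with FGF8 and 60.5% with BSA, and its part in the ratios was not tested. Over all fibroblast-like cells, of which this subcluster was a larger share with FGF8, the *Dlx5* ratio was −0.25 with an interval that held 0. Among fibroblast-like cells with UMIs of the proliferation genes it was −0.54 (−0.88 to −0.18), and among those without −0.52, with an interval that also left out 0. The *Dlx6* levels stayed within the upper bounds of the blood-derived cells.

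*Dlx5* was also lower with FGF8 in chondrocyte-like cells, with a log2 ratio of −1.29 (−1.91 to −0.69), and in keratinocyte-like cells (−1.64, −2.58 to −0.72). The keratinocyte-like cells of the libraries differed in depth, with a median of 9383 UMIs with FGF8 and 1756 with BSA. In smooth muscle or pericyte-like cells, with 21 and 15 UMIs, the interval held 0.

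*Msx1* differed little over all fibroblast-like cells (log2 ratio −0.13, −0.21 to −0.06; 0.04 among females and −0.01 among males, both with intervals that held 0, and −0.20 among cells without UMIs of the proliferation genes) but more within subclusters. It was lower with FGF8 in the *Prg4* and *Spp1* (−0.50, −0.60 to −0.40), *Lpl* and *Dlk1* (−0.48, −0.69 to −0.26) and tenocyte-like (−0.76, −1.01 to −0.51) subclusters. The tenocyte-like levels were 43.2 and 73.2 CPM. In the *Chodl* and *Sema3a* subcluster, where *Msx1* was lowest, the ratio was 0.37 with an interval that held 0. The *Prg4* and *Spp1* ratio was −0.32 among females and −0.41 among males, and the tenocyte-like one −0.78 and −1.01. The lower *Msx1* in these 2 subclusters was thus found in both sexes.

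For *Msx2* the estimates by sex had opposite signs. The pooled ratio in fibroblast-like cells was −0.45 (−0.78 to −0.11), with 0.36 (−0.21 to 0.92) among females and −1.61 (−2.10 to −1.10) among males, the latter from 114 UMIs with FGF8 and 50 with BSA. Without the *Tfap2c* and *Corin* subcluster the pooled ratio was −0.08. The pooled levels were within the upper bounds of the blood-derived cells. The male-called BSA level, 7.29 CPM, was above the bound of 5.93 CPM in neutrophil-like cells, in which no UMI was found. The levels in the *Tfap2c* and *Corin* subcluster were far above the bounds, at 84.4 and 154 CPM.

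*Prrx1* and *Prrx2* differed by small amounts. Over all fibroblast-like cells the log2 ratios were −0.07 (−0.10 to −0.05) and −0.01 (−0.05 to 0.03). Among cells without UMIs of the proliferation genes *Prrx2* was at 0.25 (0.19 to 0.30) and *Prrx1* at −0.08 (−0.12 to −0.04). *Prrx2* was higher with FGF8 in the *Lpl* and *Dlk1* (0.37), *Chodl* and *Sema3a* (0.32) and tenocyte-like (0.24) subclusters and lower in the *Prg4* and *Spp1* subcluster (−0.24, −0.31 to −0.18). In the tenocyte-like subcluster the ratio was 0.49 among females and 0.42 among males. In the *Chodl* and *Sema3a* subcluster it was 0.00 (−0.14 to 0.14) among females and 0.66 among males, and in the *Prg4* and *Spp1* subcluster 0.03 and −0.36. The *Coch* and *Nrg1* subcluster, at 0.15 over both sexes, was at −0.26 (−0.52 to −0.01) among females and 0.59 (0.28 to 0.90) among males. Male-called cells were the smaller group with BSA. In the *Chodl* and *Sema3a* subcluster none of the 7 factors with enough UMIs was past 1.5-fold, where 10.8% of 15496 genes were past it higher with FGF8 and 6.58% lower.

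Outside the fibroblast-like cells, *Prrx1* in smooth muscle or pericyte-like cells had a ratio of −0.10 (−0.18 to −0.01), *Twist1* −0.24 (−0.37 to −0.12) and *Msx1* −0.28 (−0.49 to −0.07). *Prrx2* and *Twist2*, whose intervals there overlapped or lay below those of neutrophil-like cells, had ratios of 1.04 and 0.65. In macrophage-like cells the levels of both were also higher with FGF8, 19.9 against 9.40 CPM and 12.3 against 4.18 CPM. The part of free RNA in these ratios was not tested.

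Across 30 groups of cells (the named types and subclusters of each library with at least 50 cells), the level of *Prrx1* on the log2(CPM + 1) scale followed that of *Twist1* (Pearson r = 0.95). *Prrx2* was nearest to *Olfml3* (r = 0.97), *Loxl1* and *Pdgfra*, a platelet-derived growth factor receptor of fibroblasts, and *Twist2* to *Lrrc15* (r = 0.95), *Cdh11* and *Ptgfr*. *Twist1* was nearest to *Cacna1c* (r = 0.96) and *Ddr2*, a collagen receptor, and *Prrx1* to *Adamts2* (r = 0.95), a procollagen protease. *Lmx1b* was nearest to *Hand2os1* (r = 0.95), *Col24a1* and *Galnt13*. *Msx1* was nearest to *Fhl2* (r = 0.84), *Tpm1* and *Ttll7*, *Msx2* to *Elmod1* (r = 0.90), *Camsap3* and *Catsperz*, *Dlx5* to *F3* (r = 0.82), *Cpm* and *Foxc1*, and *Dlx6* to *Smpd3* (r = 0.77), *Tmie* and *Alpl*, an osteoblast phosphatase. Within the pairs, r was 0.89 for *Twist1* and *Twist2*, 0.83 for *Prrx1* and *Prrx2*, 0.55 for *Msx1* and *Msx2* and 0.48 for *Dlx5* and *Dlx6*. The groups share libraries and depth, so these are descriptions.

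The gene lists that follow are read against the shares of all genes in fibroblast-like cells past 1.5-fold, 13.2% higher and 15.7% lower with FGF8. Of 16 genes of the same families, 13 had enough UMIs in fibroblast-like cells, 2 were past 1.5-fold higher with FGF8 and 2 lower, close to those shares, with a median of −0.29 beside −0.07 for all genes. *Dlx2* was at 2.30 CPM with FGF8 and 0.506 CPM with BSA (161 and 18 UMIs), while *Alx4* was at 4.31 and 6.75 CPM. In the *Prg4* and *Spp1* subcluster, where *Dlx5* was lower with FGF8, *Dlx2* was at 3.64 and 1.49 CPM. The other 2 genes past 1.5-fold had fewer than 100 UMIs.

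The bHLH partners are the E proteins, with which TWIST proteins pair, and the Id proteins, which take E proteins away. Of 7 genes 2 were past 1.5-fold, both higher with FGF8, beside 13.2% of all genes. *Id1* was at 275 and 147 CPM and *Id3* at 528 and 302 CPM in fibroblast-like cells. The median of the 7 was −0.05.

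Among 34 other limb and connective tissue transcription factors, 33 had enough UMIs, 2 were past 1.5-fold higher and 6 lower with FGF8, beside 13.2% and 15.7% of all genes, and the median was −0.17. The lower count was near that background, and the genes named are examples. *Foxc2* was at 7.70 and 2.87 CPM and *Sall1* at 2.66 and 1.60 CPM. On the lower side were *En1* (13.2 and 23.2 CPM), the ventral counterpart of *Lmx1b* in limb patterning, *Foxd1* (17.0 and 29.8 CPM), *Tbx5* (2.22 and 3.85 CPM) and *Meis1* (32.9 and 55.8 CPM).

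Of 18 BMP pathway genes, 5 were past 1.5-fold higher with FGF8 and 1 lower, beside 13.2% and 15.7% of all genes, with a median of −0.06, and *Id1* and *Id3* were 2 of the 5. *Bmp2* was at 38.3 and 19.3 CPM, the inhibitory *Smad7* at 184 and 91.8 CPM and *Smad9* at 3.38 and 1.21 CPM, while *Bmp4* was at 40.9 and 62.0 CPM. Higher *Bmp2* and *Id1* with FGF8 stood beside *Msx1* at a log2 ratio of −0.13 in the same cells. Of 10 osteoblast genes, 2 were past 1.5-fold, both higher with FGF8, beside the same 13.2%: *Dmp1* (8.66 and 1.29 CPM) and *Bglap2* (4.67 and 0.872 CPM). In the *Prg4* and *Spp1* subcluster the same 2 genes were higher. *Alpl* (22.0 and 55.1 CPM), *Ibsp* and *Bglap* (160 and 330 CPM), 3 of the 10, were past 1.5-fold lower there. Of all genes in this subcluster 11.4% were past 1.5-fold higher and 20.3% lower, so counts of so few genes are not read as a pattern. Of 12 genes known to respond to FGF signalling, 3 were past 1.5-fold higher and none lower, beside 13.2% and 15.7%, with a median of 0.24, and *Etv4* was at 20.7 and 4.70 CPM, *Fosl1* at 45.7 and 16.6 CPM and *Dusp6* at 18.7 and 9.98 CPM. Of 13 other genes used to describe the digit mesenchyme, 12 had enough UMIs, 4 were past 1.5-fold higher, *Sall1* again among them, and 2 lower, beside the same shares, with *Crabp1* at 762 and 444 CPM and *Postn* at 1143 and 1948 CPM, and the median was −0.08.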

How the data were processed

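Cells from 2 libraries (FGF8 and BSA, 1 each) were analysed. The authors aligned reads and counted UMIs per gene and barcode with Cell Ranger 9.0.0 against GRCm39, and the deposited values are raw UMI counts of the called barcodes; the submitters' notes also name mm10. The values used here were computed from these counts. Cells with more than 200 and fewer than 7500 genes and under 15% mitochondrial UMIs were kept. They were normalised, merged and clustered with sctransform and Seurat 5.3.0 (R 4.3.3, 30 dimensions, resolution 0.05, and 0.2 for fibroblast-like cells). The 2 libraries were integrated by canonical correlation analysis before clustering, and the 9 factors were removed from the variable features. For the fibroblast-like subclusters, the genes of the study's 2 lists of FGF8 and BSA differences and X- and Y-linked genes were removed as well, 334 of 3000 features in all. No doublet caller was run, so doublets may remain. Clusters were named from fixed marker lists by a scoring rule set after the clusters were seen. Clusters that met no name are called by leading genes, and so are fibroblast-like subclusters other than the tenocyte-like one. Among these, the rule gave the *Coch* and *Nrg1* subcluster the smooth muscle or pericyte name. This rested on 4 detected markers at a mean log2 fold of 0.41 over the other fibroblast-like cells, and the subcluster was kept among the fibroblast-like cells.

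UMIs were summed per library and cell group and scaled to 1000000. Poisson intervals for levels, conditional binomial intervals for ratios and Clopper-Pearson intervals for shares were exact, at 95%. A ratio needed 10 UMIs over both libraries, and the ratio script was checked on simulated data. With 1 library per group no p-value was computed. Shares of cells were taken after thinning to 5000 UMIs, leaving out shallower cells. Named genes were the 9 factors, genes of 7 lists past 1.5-fold with at least 100 UMIs (at most 4 a direction), and the 3 genes most like each factor; *Dlx3*, *Runx2*, *Dlx6os1* and the osteoblast genes of the subcluster were named after their values were seen. The factors and lists were chosen with earlier results of these data known. Alternatives were another cell filter, resolution, depth, sex, proliferation and weighting. Upstream sequences were matched by symbol in RefSeq (GRCm38.p6) for 7 of the 9 factors, not *Dlx5* and *Dlx6*.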

Additional observations from a re-analysis of the deposited data

Results flagged for a closer look

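The log2 ratio of FGF8 over BSA of 4 factors lay above 0 in one group of cells and below 0 in another, with counting intervals that left out 0 and levels above those of blood-derived cells in both libraries. The share of all genes that meet this rule is not given, and a gene with many UMIs can meet it at small ratios. The count of 4 is therefore not read as particular to these factors. With 1 library per group the difference between the groups of cells was not tested, and its cause was not tested either.

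*Msx1* was higher with FGF8 in the *Krt32* and *Krt82* cells (0.93) and lower in fibroblast-like (−0.13), smooth muscle or pericyte-like (−0.28) and *Krt73* and *Krt28* cells (−1.49). *Msx2* was higher with FGF8 in keratinocyte-like cells (0.71) and lower in the *Krt73* and *Krt28* cells (−0.35). The keratin-expressing groups held few cells, and their libraries differed in depth.

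*Prrx1* was higher with FGF8 in the *Prg4* and *Spp1* subcluster (0.087) and lower in the *Chodl* and *Sema3a* (−0.11), *Lpl* and *Dlk1* (−0.12), *Lars2* and *Camk1d* (−0.24) and tenocyte-like (−0.16) subclusters. Over both sexes *Prrx2* had the opposite sign in these 5 subclusters. It was higher with FGF8 in the *Chodl* and *Sema3a* (0.32), *Lpl* and *Dlk1* (0.37), *Lars2* and *Camk1d* (0.28), tenocyte-like (0.24) and *Coch* and *Nrg1* (0.15) subclusters, and lower in the *Prg4* and *Spp1* (−0.24) and *Tfap2c* and *Corin* (−0.33) subclusters. In the *Prg4* and *Spp1* subcluster the *Prrx1* ratio was 0.17 among females and −0.02 among males, as called from transcripts. It was, in the *Chodl* and *Sema3a* subcluster, −0.21 among females and 0.14 (0.04 to 0.25) among males, and in the *Lpl* and *Dlk1* subcluster −0.15 and 0.05. *Prrx2* in these subclusters, in the same order, was at 0.03, 0.00 and 0.28 among females and −0.36, 0.66 and 0.17 among males. Among their males the signs of *Prrx1* and *Prrx2* were thus the same. In the tenocyte-like subcluster they were opposite in both sexes, −0.31 and −0.23 for *Prrx1* and 0.49 and 0.42 for *Prrx2*. For *Prrx2* the sexes had opposite signs in the *Coch* and *Nrg1* subcluster, −0.26 (−0.52 to −0.01) and 0.59 (0.28 to 0.90).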

How the results depend on the processing

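No paired analysis was possible because each group had 1 library, and no replicate could be left out. The number of factors past 1.5-fold lower with FGF8 in fibroblast-like cells, 1 as reported, was 0 at a resolution of 0.1 (1322 and 905 cells), with equal weight of cells and at 2-fold, 2 in male-called cells (*Msx2*, *Lmx1b*), and 3 with equal weight of subclusters (*Msx2*, *Dlx5*, *Lmx1b*) or at their BSA shares (*Dlx5*, *Dlx6*, *Lmx1b*). In cells without proliferation genes the 1 factor was *Dlx6*. Of 18236 genes in male-called fibroblast-like cells 16.9% were past 1.5-fold lower with FGF8, so 2 of 9 was near that share. For the other settings named here no share of all genes is given, and their counts are not read as a result about the factors. The cells at a resolution of 0.1 were a different set, since a cluster led by *Prg4* (1582 and 614 cells) met no name there. The *Msx1* log2 ratio was 0.036 in female-called cells, and that of *Msx2* 0.36 there and 0.16 after thinning to 2000 UMIs. The *Lmx1b* ratio stayed below 0 in all 16 alternatives, from −1.03 to −0.43, while that of *Dlx6* ran from −0.84 to 0.16 in 14 alternatives. At a resolution of 0.1 and at 2000 UMIs *Dlx6* had fewer than 10 UMIs and no ratio. Cells with both paralogues, with FGF8 and BSA, were 22.7% and 20.9% for *Prrx1* and *Prrx2*, 12.5% and 15.2% for *Twist1* and *Twist2* and 0.0631% and 0% for *Msx1* and *Msx2* at 2000 UMIs, and 0% for *Dlx5* and *Dlx6* with BSA. Without thinning they were 83.5% and 84.1%, 59.9% and 64.8%, 1.81% and 2.05%, and 0.966% and 1.41% for *Dlx5* and *Dlx6*. The BSA shares and the fits without the *Lars2* and *Camk1d* or the *Tfap2c* and *Corin* subcluster were chosen after seeing the data. Causes were not tested. Depth limits *Dlx6*, *Msx2* and *Dlx5* in fibroblast-like cells most.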
